A study of Homo sapiens with 8 samples.

Results

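Interferon-stimulated genes are the genes that cells switch on when they sense interferon, the secreted signal of antiviral defence. A list of 43 such genes, taken by symbol, was read out of RNA-seq of HMEC-1 cells flown on the International Space Station. A row was present for 42 of the 43 among 16153 genes, and all 42 were among the 16103 genes tested; XAF1, a proapoptotic interferon target, was not analysed here. HMEC-1 is a human dermal microvascular endothelial line immortalised with the large T antigen of SV40, so it models 1 endothelial type in culture without blood cells. The cells grew on gelatin-coated plastic coverslips in automated units, with serum, hydrocortisone and epidermal growth factor in the medium of every group. The space_microg group (3 libraries) was kept weightless in orbit, the space_1g group (2 libraries) was spun at 1 g in a centrifuge inside the same orbital incubator, and the ground group (3 libraries) was kept in a matching facility in the home laboratory. Space_microg and space_1g cells shared launch, orbital radiation, return and storage of the fixed samples; the ground cells were sent back by airliner at launch and had none of these. The labels do not say whether replicates were separate cultures, so p-values measure the spread between these libraries, which may be technical.

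Type I interferons bind the receptor pair IFNAR1 and IFNAR2, whose kinases JAK1 and TYK2 phosphorylate STAT proteins, STAT2 among them. A STAT complex that holds STAT2 and IRF9 binds a DNA motif called the interferon-stimulated response element in the promoters of target genes. The products restrict viruses at many steps, and endothelial cells, which line vessels and meet viruses and interferon in the blood, are known to respond in this way. Lambda interferons reach the same STAT complex through IFNLR1 and IL10RB.

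The core letters of that element (GAAA, any 2 bases, GAAA, on either strand) were found in 22 of the 33 member promoters held in the RefSeq table (GRCh38.p14, 250 bases before to 50 after the start), or 66.7%. Among all 35116 promoters of that table the share was 3.57%, and among the 14910 promoters of genes in the deposited table it was 3.02%. The core of the gamma-activated site, TTCNNNGAA, was in 9 of 33 member promoters (27.3%), against 7.66% of all promoters. A match describes letters in this window and is no measure of binding. The stretches printed here run 5′ to 3′ along the gene's strand, up to 20 bases either side of the match nearest the start, and capitals mark every match in the stretch. They were chosen from members with wide and narrow spread between libraries, so that the letters can be read beside the values that follow.
ISG15 (chr1:1013370-1013419, plus strand): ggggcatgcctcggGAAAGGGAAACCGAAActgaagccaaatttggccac
IFI6 (chr1:27672256-27672305, minus strand): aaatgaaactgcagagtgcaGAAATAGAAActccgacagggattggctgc
IFI27 (chr14:94110621-94110670, plus strand): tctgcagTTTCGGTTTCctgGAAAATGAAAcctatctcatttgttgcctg
IFIT1 (chr10:89392500-89392549, plus strand): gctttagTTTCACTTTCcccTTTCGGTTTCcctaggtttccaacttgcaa
IFIT3 (chr10:89327855-89327904, plus strand): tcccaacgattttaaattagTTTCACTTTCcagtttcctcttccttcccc
HERC5 (chr4:88457025-88457074, plus strand): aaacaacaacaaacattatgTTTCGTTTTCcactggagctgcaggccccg
BST2 (chr19:17405725-17405774, minus strand): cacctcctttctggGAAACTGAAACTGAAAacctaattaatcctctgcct
TAP1 (chr6:32853803-32853852, minus strand): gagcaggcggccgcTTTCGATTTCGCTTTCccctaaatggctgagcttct
IFITM3 (chr11:320866-320915, minus strand): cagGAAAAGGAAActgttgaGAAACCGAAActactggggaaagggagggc

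In ISG15, BST2 and TAP1 a pair of matches overlapped, so that 3 repeats of the motif's arm stood in a row, while in IFI27 and IFIT1 a pair lay close together, read on opposite strands in IFI27 and on the same strand in IFIT1. The match nearest the start began 107 bases before it in ISG15, 103 in IFIT1, 122 in IFIT3, 128 in TAP1 and 35 in IFITM3. The core letters were not in the windows of OAS1, DDX58, STAT2, IRF1, IRF9, RSAD2, CMPK2, HERC6, PARP9, SAMD9L and UBE2L6. Both OAS1 and IRF1 held the TTCNNNGAA core, as did IRF9.

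The libraries held 24248964 to 35388757 reads over all genes with a row, and 1 read was worth 0.0285 to 0.0398 CPM. CPM here is the deposited normalised signal, whose columns do not sum to 1 common total. All 12 endothelial markers of a fixed list had a row, with PECAM1, an endothelial junction protein, at 201 to 367 CPM. Of 12 leukocyte markers only CD14 had one, at 1.04 to 2.88 CPM, and PTPRC, the general leukocyte marker, was not analysed here. Fibroblast markers had a row for 4 of 7 and summed to 109 to 305 CPM, and keratinocyte markers had a row for 2 of 6 and summed to 1.63 to 4.63 CPM. In bulk RNA, fewer cells that respond and less RNA per cell cannot be told apart. Space_1g replicate 1 and ground replicate 3 stood apart from the rest of their groups. Both were already known from earlier results of these data, where interferon-induced genes were among what set them apart, so values without them are not an independent check.

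Most of the 42 genes shared 1 order of libraries, and their summed level did not follow the groups. It was 3504, 1970 and 1707 CPM in space_microg replicates 1 to 3, 6813 and 1446 CPM in space_1g replicates 1 and 2, and 2059, 1398 and 8179 CPM in ground replicates 1 to 3. As a share of reads this was 0.348%, 0.203% and 0.167% in space_microg, 0.678% and 0.148% in space_1g, and 0.208%, 0.145% and 0.771% in ground. Space_1g replicate 1 and ground replicate 3 were high, space_microg replicate 1 lay between, and the other 5 were low, so each group held at least 1 raised library and 1 low library. Within each group the library with the highest summed level was also the deepest, with 35388757 reads for space_microg replicate 1, 30929975 for space_1g replicate 1 and 34625881 for ground replicate 3. Fibroblast markers summed to 192, 155 and 295 CPM in space_microg, 109 and 305 CPM in space_1g, and 256, 270.2 and 168 CPM in ground. They were thus lower in space_1g replicate 1 and ground replicate 3 than in the rest of those groups. CD14 was lower in that pair too (1.04 and 2.34 CPM in space_1g, 1.53, 1.87 and 1.04 CPM in ground). In space_microg it had 2.56, 1.93 and 2.88 CPM, so replicate 1 was not the lowest of that group. Keratinocyte markers summed higher in that pair than in the rest of those groups (4.45 and 3.13 CPM in space_1g, 2.18, 1.63 and 4.14 CPM in ground). Their sums were 3.45, 1.84 and 4.63 CPM in space_microg, so the highest was in space_microg replicate 3, a low library for the members. That pair was highest in 1 of the 2 keratinocyte genes. Endothelial markers summed to 2271, 1462 and 1854 CPM in space_microg, 1847 and 1667 CPM in space_1g, and 2439, 2584 and 2191 CPM in ground. The part of depth or of these markers in the order of the libraries was not tested.

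**Figure D1:**
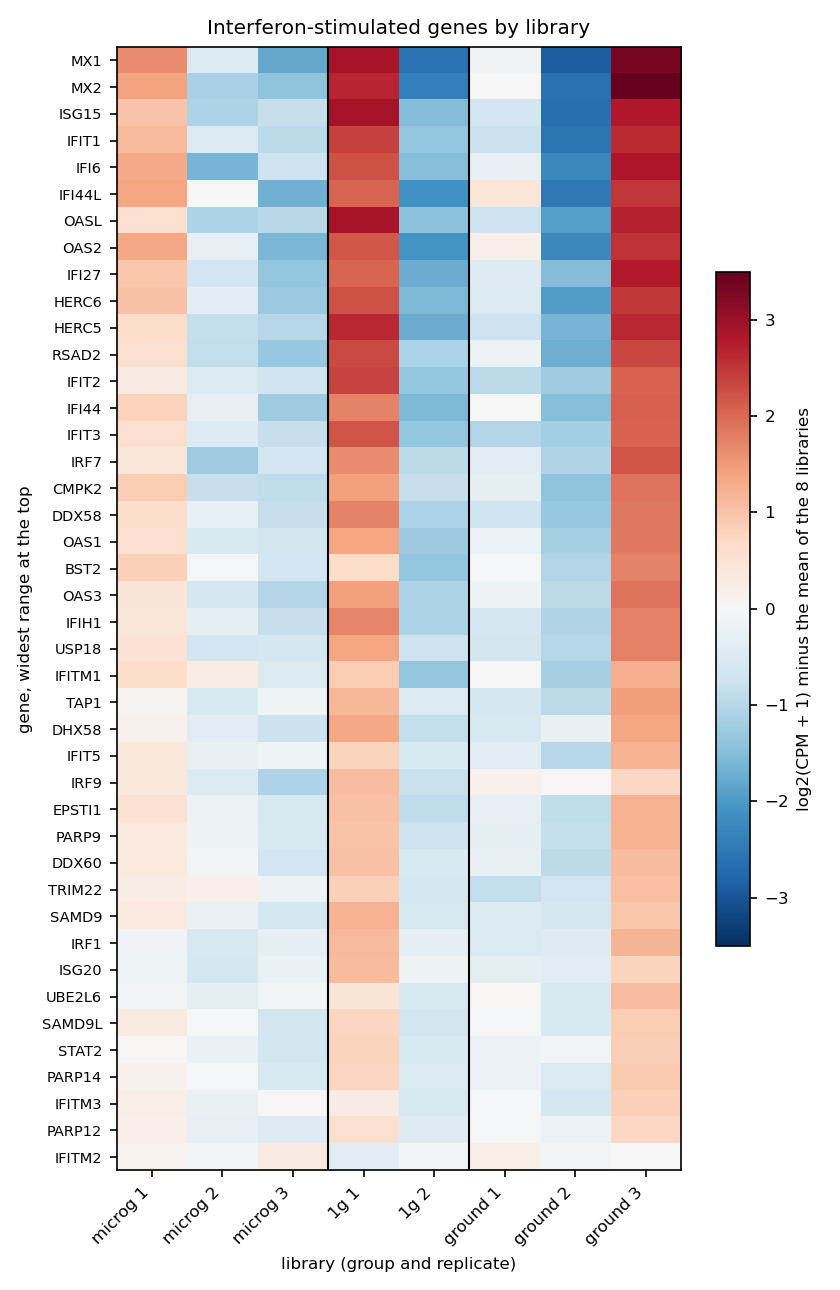
Each row is 1 interferon-stimulated gene and each column 1 library, with colour giving log2(CPM + 1) minus the gene's mean over the 8 libraries and black lines between groups. Red is above that mean and blue below it. The reddest columns are space_1g replicate 1 and ground replicate 3, and the paler red column is space_microg replicate 1. By their medians the bluest columns are space_1g replicate 2 and ground replicate 2. The row at the bottom, IFITM2, shows no such order.

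That order recurred in nearly every member. Space_1g replicate 1 and ground replicate 3 were the 2 highest libraries in 40 of the 42 genes (95.2%), against 23.6% of all genes tested. The exceptions were IFITM2 and BST2. Space_microg replicate 1 was the highest of the other 6 libraries in 40 of 42 (95.2%), against 14.6% of all genes. Space_1g replicate 2 or ground replicate 2 was the lowest of those 6 in 33 of 42 (78.6%), against 29.4% of all genes. These are shares of genes measured in the same libraries and carry no test.

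The size of the steps differed between genes and between pairs of libraries. Space_microg replicate 1 over space_microg replicate 3 had a median ratio of 2.40 over the members (0.862 to 12.3), where all genes had 1.00. Space_1g replicate 1 over space_1g replicate 2 had 6.33 (0.816 to 97.9), where all genes had 1.00, and ground replicate 3 over ground replicate 1 had 4.34 (0.874 to 12.7), where all genes had 0.998. Ground replicate 3 over space_1g replicate 1, the 2 highest libraries, had 1.17 (0.756 to 2.27), and 35 of 42 members were above 1. BST2 was furthest above 1 in that last ratio and IRF9 furthest below it.

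The members spread far more widely than most genes. The range over the 8 libraries, in log2(CPM + 1), had a median of 2.93 over the members and 0.88 over all genes tested. MX1 had the widest range of all 16103 genes (6.21) and MX2 the next, and 12 members were among the 50 widest. By role, the median range was 6.15 for the MX GTPases, 4.5 for the IFI genes with EPSTI1, 4.39 for the ISG15 conjugation genes, 3.94 for the OAS family and 3.64 for the IFIT family. It was 2.56 for RNA sensors, 2.40 for TAP1 alone, 2.05 for the IFITM genes with tetherin, 1.96 for transcription factors, 1.88 for other antiviral effectors and 1.46 for the PARP genes.

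Of the 4 transcription factors, 3 had ranges below the members' median (1.51 for STAT2, 1.76 for IRF1, 2.16 for IRF9) and IRF7, at 3.44, was above it. STAT2, the STAT protein particular to the type I and lambda interferon complex, had 156, 129 and 95.7 CPM in space_microg libraries, 258 and 103 CPM in space_1g libraries, and 131, 140.0 and 275 CPM in ground libraries. IRF7, the factor that amplifies interferon gene transcription, had 49.3, 14.9 and 22.7 CPM in space_microg, 117 and 19.1 CPM in space_1g, and 28.3, 17.1 and 171 CPM in ground. IRF1, a factor of both interferon types, had 43.6 to 59.8 CPM in space_microg, 51.1 and 144 CPM in space_1g, and 46.0 to 149.7 CPM in ground. The 3 factors shared the same pair of high libraries. IRF9, the DNA-binding subunit of the complex, had 0.906 to 4.27 CPM in space_microg, 1.36 and 7.54 CPM in space_1g, and 3.15 to 5.70 CPM in ground, but all its 50-base windows also occur in the read-through gene AL136295.5, so its level is uncertain.

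RNA sensors start the response by recognising viral RNA in the cytoplasm, and they are themselves induced. DDX58, which encodes RIG-I, had 82.1, 43.3 and 29.7 CPM in space_microg, 178 and 24.1 CPM in space_1g, and 32.3, 20.3 and 193 CPM in ground. IFIH1, which encodes MDA5, had 29.2, 17.1 and 11.7 CPM in space_microg, 72.2 and 9.33 CPM in space_1g, and 13.6, 9.76 and 75.4 CPM in ground. Both genes had their lowest or next to lowest levels in space_1g replicate 2 and ground replicate 2. DHX58, which encodes the regulator LGP2, ran from 1.96 to 13.0 CPM, and the helicase gene DDX60 from 47.7 to 197 CPM.

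The MX genes encode dynamin-like GTPases that trap viral nucleocapsids. MX1 (GENCODE v29, chr21:41420304-41459214, plus strand) had 208, 45.4 and 18.2 CPM in space_microg, 486 and 9.93 CPM in space_1g, and 60.1, 7.93 and 659.9 CPM in ground. Its mean was 90.5 ± 103 CPM in space_microg (SD, n = 3), 248 ± 337 CPM in space_1g (n = 2) and 243 ± 362 CPM in ground (n = 3), so each SD exceeded its mean. MX2 had 19.6, 2.51 and 1.91 CPM in space_microg, 48.1 and 0.491 CPM in space_1g, and 6.77, 0.279 and 86.1 CPM in ground. Its lowest value rests on 7 reads. For both genes every pair of groups overlapped.

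ISG15 is a ubiquitin-like protein that is joined to other proteins by UBE2L6 and HERC5 and taken off by USP18, which also damps the receptor. ISG15 had 163, 37.8 and 45.9 CPM in space_microg, 621 and 27.9 CPM in space_1g, and 51.3, 12.3 and 577 CPM in ground. HERC5, the ligase, had 14.4, 4.55 and 3.92 CPM in space_microg, 60.9 and 1.96 CPM in space_1g, and 4.99, 2.19 and 60.9 CPM in ground. HERC6, its relative, had 40.2, 14.6 and 7.31 CPM in space_microg, 94.2 and 5.85 CPM in space_1g, and 13.5, 4.30 and 112 CPM in ground. ISG15 and both HERC genes had the same 3 highest libraries. UBE2L6, the conjugating enzyme, covered 36.1 to 113 CPM and USP18 12.3 to 88.9 CPM, with log2 ranges of 1.62 and 2.76. Of the 50-base windows of USP18, 23.0% also occur in its copy USP41.

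The IFI genes are classical interferon markers; IFI6 and IFI27 encode small mitochondrial or membrane proteins, and IFI44 and IFI44L related cytoplasmic ones. IFI6 had 175, 21.9 and 41.2 CPM in space_microg, 329 and 23.7 CPM in space_1g, and 55.9, 13.7 and 496 CPM in ground. IFI27 had 124, 39.2 and 23.5 CPM in space_microg, 258 and 18.1 CPM in space_1g, and 45.3, 21.1 and 431 CPM in ground. In both, ground replicate 3 exceeded space_1g replicate 1, by ratios of 1.51 and 1.67. IFI44 had 34.3, 15.6 and 7.48 CPM in space_microg, 66.5 and 5.82 CPM in space_1g, and 19.1, 6.18 and 85.4 CPM in ground. IFI44L had 22.3, 7.91 and 1.81 CPM in space_microg, 35.7 and 1.06 CPM in space_1g, and 11.1, 0.598 and 49.9 CPM in ground. In IFI44L space_microg replicate 1 was 12.3 times replicate 3, the largest such ratio among the members.

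IFIT proteins bind viral RNA that lacks the host cap marks and block its translation. IFIT1 had 64.8, 20.1 and 14.4 CPM in space_microg, 156 and 10.5 CPM in space_1g, and 16.6, 4.10 and 179.8 CPM in ground. IFIT2 had 45.5, 25.5 and 22.0 CPM in space_microg, 191 and 13.7 CPM in space_1g, and 18.8, 14.7 and 158 CPM in ground. IFIT3 had 71.8, 34.9 and 26.8 CPM in space_microg, 226 and 18.2 CPM in space_1g, and 23.0, 20.4 and 202 CPM in ground. In IFIT2 and IFIT3 space_1g replicate 1 was the highest library, and the 3 space_microg libraries lay above ground replicates 1 and 2. IFIT5 had 28.4 to 44.0 CPM in space_microg, 23.3 and 59.0 CPM in space_1g, and 16.5 to 80.5 CPM in ground.

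OAS enzymes make the messenger that activates RNase L, which then cuts RNA. OAS3 had 319, 154 and 113 CPM in space_microg, 633 and 109 CPM in space_1g, and 206, 119 and 866 CPM in ground. OAS2 had 123, 38.9 and 14.9 CPM in space_microg, 217 and 10.4 CPM in space_1g, and 54.0, 9.20 and 277 CPM in ground. OASL, which lacks the enzyme activity and boosts RIG-I signalling, had 18.9, 5.40 and 5.87 CPM in space_microg, 98.1 and 3.96 CPM in space_1g, and 7.21, 2.55 and 86.6 CPM in ground. OAS3 kept over 100 CPM in every library and had the narrowest log2 range of the family (2.98). OAS1 had 31.3 to 75.1 CPM in space_microg, 20.1 and 132 CPM in space_1g, and 21.8 to 180.4 CPM in ground.

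**Figure D2:**
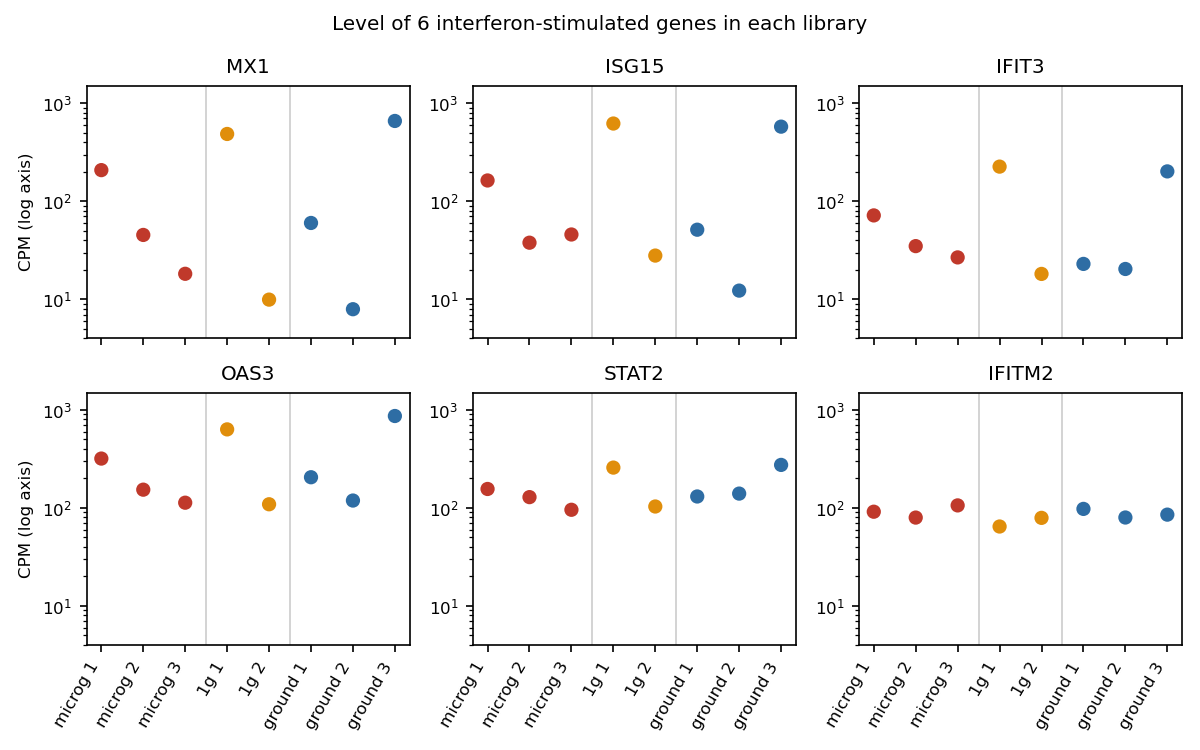
Points give the level of 6 genes in each library, in CPM on a log axis, with space_microg at the left, space_1g in the middle and ground at the right. MX1 runs between 7.93 and 659.9 CPM and IFITM2 between 64.6 and 106 CPM, and in the first 5 panels the highest points are space_1g replicate 1 and ground replicate 3.

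Among the remaining effectors, RSAD2, which encodes viperin, had 3.99, 0.846 and 0.335 CPM in space_microg, 15.7 and 0.566 CPM in space_1g, and 1.93, 0.0398 and 16.2 CPM in ground. The ground replicate 2 value is 1 read. CMPK2, its neighbour on chromosome 2 and a nucleotide kinase, had 0.436 to 3.96 CPM in space_microg, 0.529 and 6.24 CPM in space_1g, and 0 to 9.01 CPM in ground. Its 0 reads in ground replicate 2 allow up to 0.12 CPM, counting error only. These 2 low genes thus followed the same order as the abundant ones. TRIM22, a RING-finger restriction factor (chr11:5689689-5737089, plus strand), had 103, 95.8 and 75.9 CPM in space_microg, 153 and 55.6 CPM in space_1g, and 46.4, 53.5 and 177 CPM in ground. SAMD9, an antiviral translation repressor, covered 52.9 to 192 CPM and its neighbour SAMD9L 26.0 to 76.9 CPM. ISG20, an RNA exonuclease, covered 12.2 to 41.5 CPM and EPSTI1 11.3 to 52.3 CPM.

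PARP genes of this set encode ADP-ribosyltransferases and relatives linked to STAT signalling. PARP14 had 384, 341 and 237 CPM in space_microg, 584 and 247 CPM in space_1g, and 301, 246 and 652 CPM in ground. PARP9 covered 40.7 to 171 CPM and PARP12 39.1 to 89.4 CPM. TAP1 (chr6:32845209-32853978, minus strand), a subunit of the peptide pump that loads MHC class I molecules, had 144, 92.4 and 123 CPM in space_microg, 307 and 94.7 CPM in space_1g, and 90.4, 70.4 and 376 CPM in ground. High libraries were the same pair in all 4 genes.

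The IFITM proteins sit in membranes and block viral fusion; of the 3, IFITM2 departed from the shared order. IFITM2 (chr11:307631-315272, plus strand) had 91.5, 79.7 and 106 CPM in space_microg, 64.6 and 79.2 CPM in space_1g, and 97.7, 79.8 and 85.4 CPM in ground. Its mean was 92.4 ± 13.2 CPM in space_microg (SD, n = 3), 71.9 ± 10.3 CPM in space_1g (n = 2) and 87.7 ± 9.15 CPM in ground (n = 3). It had the narrowest range of the members (0.71 in log2), and space_1g replicate 1, a high library for nearly all others, was its lowest. IFITM3 had 242, 171 and 209 CPM in space_microg, 252 and 143 CPM in space_1g, and 201, 135 and 368 CPM in ground. IFITM1 had 6.31 to 15.2 CPM in space_microg, 2.98 and 18.2 CPM in space_1g, and 3.67 to 24.2 CPM in ground. Of 50-base windows, 42.3% of IFITM1, 15.8% of IFITM2 and 20.3% of IFITM3 also occur in other genes, mostly each other, and reads there could be split between them. BST2, or tetherin, which holds budding virus at the surface, had 7.98, 3.79 and 2.18 CPM in space_microg, 6.99 and 0.982 CPM in space_1g, and 3.86, 1.47 and 15.8 CPM in ground.

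Per kilobase of merged exon, the most abundant members by mean over the 8 libraries were ISG15 (204 CPM per kb), IFI6 (167) and IFITM3 (159.5). IFITM2 (55.4), OAS3 (38.1), PARP14 (35.6), TAP1 (33.8), IFIT3 (29.5), IFI27 (29) and STAT2 (26.3 CPM per kb) followed. CMPK2 (0.633 CPM per kb) was the least abundant, below IRF9 (0.934).

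Genes upstream of the members were read from lists of the same pathway. IFNL1, a lambda interferon, was the only ligand of the list besides IFNE with a row; the other 8 of the 10 were not analysed here. It had 10, 3 and 0 reads in space_microg, 60 and 2 reads in space_1g, and 3, 0 and 68 reads in ground, which is at most 0.285 CPM in space_microg, 1.95 CPM in space_1g and 2.08 CPM in ground. The 0 reads allow up to 0.101 CPM in space_microg replicate 3 and 0.12 CPM in ground replicate 2. Its 3 highest libraries were the same 3 as for the members. IFNE, a type I interferon known in mucosal epithelium, had 29 to 35 reads in space_microg, 38 and 12 reads in space_1g, and 23 to 35 reads in ground, with no such order.

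Receptor genes did not share the order. IFNAR1 had 97.2, 96.1 and 93.1 CPM in space_microg, 89.5 and 92.6 CPM in space_1g, and 95.8, 104 and 77.9 CPM in ground. IFNAR2 had 21.1, 25 and 23.2 CPM in space_microg, 18.4 and 26.4 CPM in space_1g, and 24.3, 29.3 and 15.4 CPM in ground. For both receptor chains the libraries highest for the members were the lowest, and in 0 of the 6 receptor genes were those 2 libraries the highest. IFNLR1, the lambda receptor chain, was at 2.11 to 3.86 CPM throughout.

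Of the 5 kinase and STAT genes, 4 had the same 2 highest libraries as the members. JAK1, the kinase on the IFNAR2 chain, had 370, 321 and 302 CPM in space_microg, 442 and 334 CPM in space_1g, and 353, 319.7 and 523 CPM in ground. STAT3 had 265, 215 and 219 CPM in space_microg, 368 and 225 CPM in space_1g, and 231, 203 and 395 CPM in ground. Both had space_microg replicate 1 as the highest of the other 6 libraries, and STAT3 had a log2 range of 0.96. Among 15 genes of nucleic acid sensing the count was 7, led in range by IRF5, a factor downstream of Toll-like receptors, with 2.14 to 2.42 CPM in space_microg, 10.1 and 2.27 CPM in space_1g, and 1.35 to 12.8 CPM in ground. TRIM25, which ubiquitinates RIG-I, had 88.2 to 152 CPM in space_microg, 90.8 and 260 CPM in space_1g, and 106 to 214 CPM in ground.

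Among 6 negative regulators the count was 2. SOCS1, the inhibitor of JAK kinases, had 0.146 to 0.285 CPM in space_microg, 1.82 and 1.06 CPM in space_1g, and 0.319 to 0.705 CPM in ground, and SOCS3, a related inhibitor, had 9.19 to 15.3 CPM in space_microg, 16.8 and 11.6 CPM in space_1g, and 6.93 to 16.5 CPM in ground. SOCS1 was thus higher in each space_1g library than in any other library, but it rests on few reads in those others. Of all genes 4.94% were higher in space_1g than in ground without overlap. Another 6.91% of all genes, counted separately, were lower in space_microg than in space_1g without overlap. A further 41 type I target genes that are no members had the same 2 highest libraries in 30 (73.2%), and 25 targets typical of interferon gamma in 10 (40.0%). HELZ2, a helicase coactivator, had 209, 58.0 and 74.7 CPM in space_microg, 416 and 88.2 CPM in space_1g, and 106, 61.6 and 494 CPM in ground. FAS, the death receptor, had 28.6 to 41.3 CPM in space_microg, 21.8 and 101 CPM in space_1g, and 14.1 to 84.6 CPM in ground. Endothelial markers had that pair highest in 1 of 12 and fibroblast markers in 0 of 4.

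**Figure D3:**
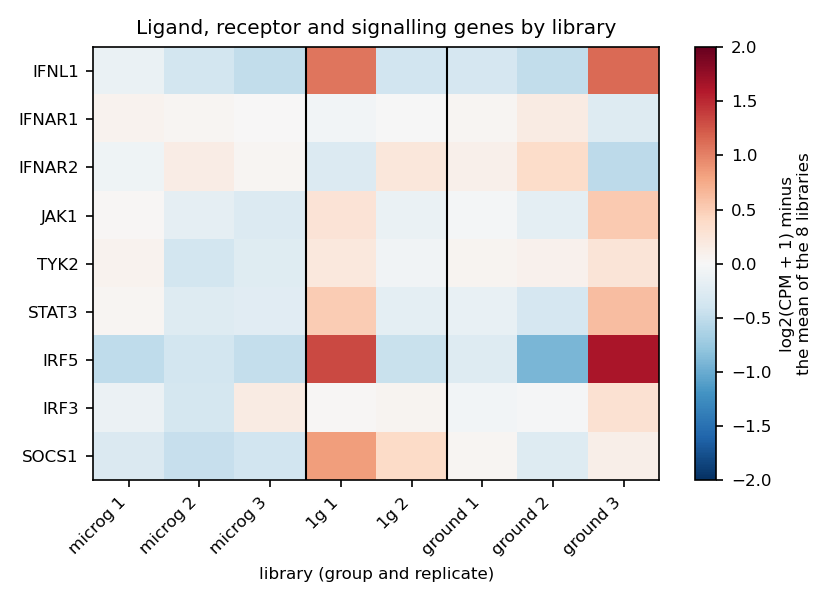
Rows are ligand, receptor and signalling genes of the interferon pathway and columns the 8 libraries, with colour giving log2(CPM + 1) minus the gene's mean. IFNL1, IRF5 and STAT3 are reddest in space_1g replicate 1 and ground replicate 3, while IFNAR1 and IFNAR2 are palest or blue there.

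The comparison of space_microg with ground asks what flight and weightlessness together did. No member passed limma's test at an adjusted p of 0.05, and 0% of all genes did (0 of 16103; 696 genes and 0 members had an unadjusted p under 0.05). The median difference in log2(CPM + 1), which understates the change of low genes, was -0.28 over the members and -0.02 over all genes. Each library's median over the members, centred on each gene's mean, had a pooled within-group SD of 1.25. In each comparison with all 8 libraries the members' median difference was smaller in size than that SD. The difference was above 0 in 5 of 42 members (11.9%), against 47.0% of all genes. The groups did not overlap upwards in 0 members, against 7.88% of all genes, nor downwards in 0, against 6.53%. MX1 had a difference of -0.32 ± 1.78 (SE), ISG15 of -0.14 ± 1.47 and STAT2 of -0.46 ± 0.39, and the smallest adjusted p of a member by limma was 0.866.

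The sign of that median rested on 1 library. With ground replicate 3 left out it was 0.56, and 39 of 42 members were above 0. Leaving out ground replicate 1 gave -0.48 and leaving out ground replicate 2 gave -0.81, while the medians were -0.59, -0.18 and -0.02 when space_microg replicates 1, 2 and 3 were left out in turn. With space_1g replicate 1 left out as well as ground replicate 3 it stayed at 0.56, where all genes had -0.0044. Of the 42 members 39 were then above 0 (92.9%), against 49.3% of all genes, and 7 had an unadjusted p under 0.05 with a higher level (16.7%), against 5.69% of all genes. The 7 were TRIM22, IFIT5, TAP1, IFIT2, IFIT3, IFIT1 and DDX58, named after their values were seen. With ground replicate 3 alone left out the count was 1, TRIM22, so the 7 depend on also leaving out a space_1g library. Again no member passed the adjusted test and 0% of all genes did.

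TRIM22 had a difference of 0.85 ± 0.16 without both libraries (limma, unadjusted p = 0.000474, adjusted p = 0.238), with 75.9 to 103 CPM in space_microg and 46.4 and 53.5 CPM in ground. IFIT5 had 0.69 ± 0.24, TAP1 0.56 ± 0.20, IFIT2 0.79 ± 0.28 and IFIT3 0.88 ± 0.34, and in these 5 genes the space_microg libraries all lay above ground replicates 1 and 2. That is 11.9% of the members, below the 16.7% of all genes. IFIT1 had 1.55 ± 0.62 and DDX58 0.86 ± 0.36, with overlap through space_microg replicate 3. MX1, the gene of widest range, had 1.29 ± 0.94, with overlap of space_microg replicates 2 and 3 and ground replicate 1.

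Endothelial and fibroblast markers differed between the same libraries in the other direction. Keratinocyte markers were above 0 in 2 of 2 (median 0.35), as was CD14, the only leukocyte marker with a row (0.35). Endothelial markers had a difference below 0 in 12 of 12 (median -0.42), where 49.3% of all genes were above 0. PECAM1 had 219 to 299.7 CPM in space_microg and 349 and 367 CPM in ground. Fibroblast markers had a difference below 0 in 4 of 4 (median -0.77). COL1A2, a collagen chain, had 28.1 to 41.4 CPM in space_microg and 71.7 and 72.4 CPM in ground. By limma none of these markers passed the adjusted threshold. With all 8 libraries the endothelial and fibroblast counts below 0 were 11 of 12 (median -0.39) and 3 of 4 (median -0.10). Of all genes 47.0% were then above 0. Keratinocyte markers had 1 of 2 above 0, and CD14 stayed above 0. The part of these markers in the members' differences was not tested.

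**Figure D4:**
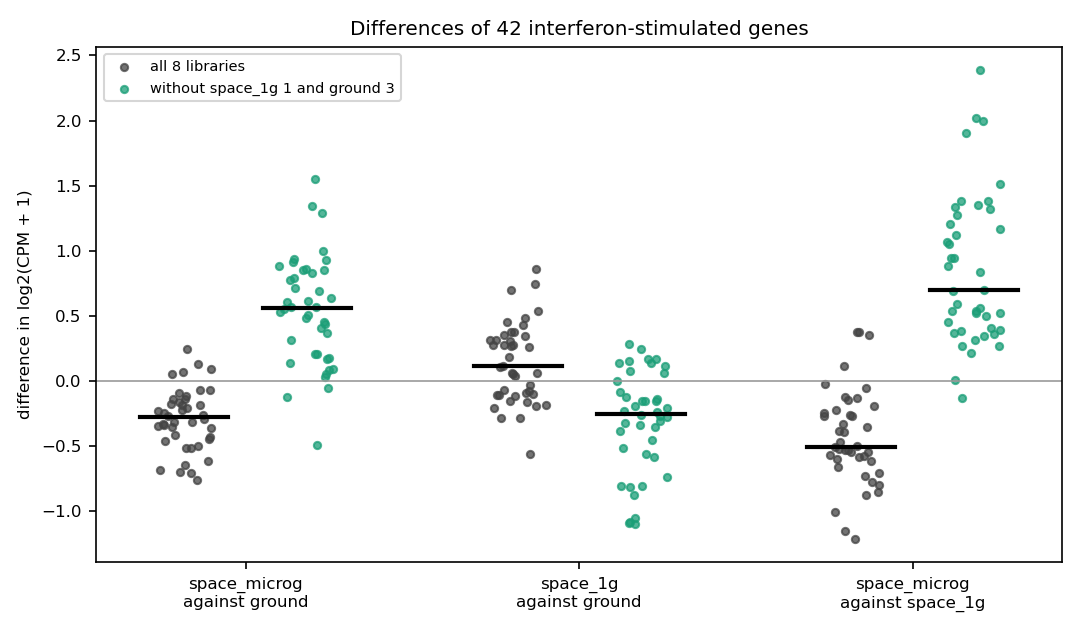
Each point is the limma difference in log2(CPM + 1) of 1 of the 42 genes, for each comparison with all 8 libraries (grey) and without space_1g replicate 1 and ground replicate 3 (green), and bars give medians. The median is -0.28 and then 0.56 for space_microg against ground, 0.11 and then -0.25 for space_1g against ground, and -0.51 and then 0.70 for space_microg against space_1g.

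The comparison of space_1g with ground asks what flight did where gravity was replaced. By limma no member passed, and 0% of all genes did (249 genes and 0 members with an unadjusted p under 0.05). The median difference was 0.11 over the members and 0.01 over all genes, with 26 of 42 members above 0 (61.9%), against 51.2% of all genes. No member was higher without overlap, against 4.94% of all genes, and 1 was lower, against 5.73%. This was IFITM2, with 64.6 and 79.2 CPM in space_1g and 79.8 to 97.7 CPM in ground, a difference of -0.28 ± 0.18 (limma, unadjusted p = 0.156, adjusted p = 1.00). The difference was -0.14 with space_1g replicate 1 left out and -0.43 with space_1g replicate 2 left out. The gap between the groups at their nearest was 79.2 against 79.8 CPM.

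With 2 libraries so unlike in space_1g, the other members had no stable direction. Leaving out space_1g replicate 1 gave a median of -1.11 (0 of 42 above 0), and leaving out space_1g replicate 2 gave 1.24 (41 of 42). The medians were -0.07, -0.36 and 0.88 when ground replicates 1, 2 and 3 were left out in turn. With space_1g replicate 1 and ground replicate 3 both left out it was -0.25, with 11 of 42 above 0 (26.2%), against 51.1% of all genes. Without overlap, 17 of 42 were lower (40.5%), against 36.9% of all genes, and 4 were higher (9.52%), against 38.3%. No member and 0% of all genes passed the adjusted test there, in which the lone space_1g library is assumed to vary like the other groups.

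The comparison of space_microg with space_1g asks what weightlessness did within the flight. No member passed the limma test, and 0% of all genes did (212 genes and 0 members with an unadjusted p under 0.05). The median difference was -0.51 over the members and -0.03 over all genes, with 4 of 42 above 0 (9.52%), against 46.6% of all genes. IFITM2 was higher without overlap, 1 of 42 against 7.24% of all genes, and 0 members were lower, against 6.91%. Its difference was 0.36 ± 0.18 (limma, unadjusted p = 0.0853, adjusted p = 0.912), with 79.7 to 106 CPM in space_microg and 64.6 and 79.2 CPM in space_1g. With space_1g replicate 1 left out it was 0.21. The 3 comparisons share libraries, so IFITM2 appears in the last pair of them through the same space_1g values.

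Here too the sign of the median followed 1 library. Leaving out space_1g replicate 1 gave 0.70, and leaving out space_1g replicate 2 gave -1.67. The medians were -0.86, -0.35 and -0.16 when space_microg replicates 1, 2 and 3 were left out in turn. With space_1g replicate 1 and ground replicate 3 left out, 41 of 42 members were above 0 (97.6%), against 49.2% of all genes, and 29 were above the lone space_1g library in all 3 space_microg libraries (69.0%), against 16.9%. Of the members 7 had an unadjusted p under 0.05 with a higher level (16.7%), against 0.435% of all genes. These were TRIM22 (0.70 ± 0.21), IFITM1 (1.51 ± 0.50), IFIT2 (1.05 ± 0.36), IFIT3 (1.12 ± 0.43), BST2 (1.38 ± 0.54), HERC5 (1.34 ± 0.60) and OAS1 (1.07 ± 0.48), and 0% of all genes passed after adjustment (limma, smallest adjusted p of a member 1.00). With space_1g replicate 1 alone left out the median was the same, and 0 members had an unadjusted p under 0.05, so the 7 depend on also leaving out a ground library. Space_1g replicate 2 was the lowest of the 8 libraries for 13 of the 42 members, and the comparison rests on that 1 library.

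The pathway lists gave 0 genes past the adjusted threshold in every comparison. In space_microg against ground, 1 of 5 kinase and STAT genes, 5 of 6 receptors, 3 of 15 sensing genes, 4 of 6 negative regulators, 10 of 41 other type I targets and 12 of 25 gamma targets were above 0. With the same 2 libraries left out the counts for the last 2 lists were 35 of 41 and 20 of 25, with medians of 0.17 and 0.27. Of all genes 49.3% were above 0 without those libraries and 47.0% with all 8 libraries. By the same rule as for the members, GBP3, a guanylate-binding protein, was named there with at least 48.7 CPM in each space_microg library and 38.6 to 42.8 CPM in ground, a difference of 0.29 ± 0.14 (limma, adjusted p = 0.866). JAK2 had 0.14 ± 0.14 and PARP11 0.48 ± 0.29, also without overlap.

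In space_1g against ground, TLR3, the endosomal sensor of double-stranded RNA, had 10.3 and 14.8 CPM in space_1g and 17 to 17.5 CPM in ground, a difference of -0.46 ± 0.21 (limma, adjusted p = 1.00). In space_microg against space_1g it had 15.7 to 18.7 CPM in space_microg, a difference of 0.45 ± 0.21 (adjusted p = 0.912). Its lowest library, space_1g replicate 1, was the second highest for DDX58 and IFIH1. Of the receptors, 6 of 6 were above 0 in space_microg against space_1g and 1 of 6 in space_1g against ground, with IFNGR1, the gamma receptor chain, at 0.27 ± 0.16 and -0.20 ± 0.16. Of 41 other type I targets, 11 and 25 were above 0 in those comparisons. With space_1g replicate 1 and ground replicate 3 left out, 3 of 6 receptors were above 0 in each comparison, and the type I targets counted 34 of 41 in space_microg against space_1g and 20 of 41 in space_1g against ground.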

How the data were processed

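RNA-seq libraries, 8 in all, came from total RNA of HMEC-1 cells, depleted of ribosomal RNA and prepared with strand information, per the labels' protocols. The submitters' processing notes name STAR 2.5.3, CASAVA 1.8.2, featureCounts, FastQC and edgeR, and as builds GRCh38 and hg38; their roles and the strand setting are not given in the sources used here. The deposited table holds a normalised signal for each gene. The labels call it CPM, but its columns do not sum to 1 common total. The design had been written for CPM, and its log-scale test was kept for this scaled signal. In each library 100% of values were whole multiples of 1 read within 1e-06 read, so reads could be recovered. Columns of no sample in the table numbered 0.

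Values were analysed as log2(CPM + 1) for genes with at least 1 CPM in at least 2 libraries, with limma 3.58.1 in R 4.3.3 (lmFit, eBayes with a mean trend), two-sided, all 8 libraries in 1 fit, no covariate, and Benjamini-Hochberg adjustment over all 16103 genes at 0.05. edgeR 4.0.16 (quasi-likelihood) and DESeq2 1.42.0 were run on the recovered reads as alternatives, and the closing section names the others. The steps were tested on simulated data with 1 spread for all genes and no library standing apart. That test therefore does not show how they behave with libraries as unlike as these. Promoter sequences are those of RefSeq (GRCh38.p14), matched by symbol for 33 of 42 members (DDX58 as RIGI); IFIT2, MX2, OAS2, OASL, DHX58, IRF7, IFITM2, TRIM22 and USP18 had no entry. Gene positions and exon lengths are those of GENCODE v29 on GRCh38, 1-based.

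Members, pathway lists and libraries left out were chosen with earlier results of these data known. Named by rule were, per comparison and direction, up to 4 members with the smallest p among those averaging 5 CPM or more whose groups do not overlap, the 14 members with the widest range, the 10 with the highest mean CPM per kilobase, and up to 2 genes per pathway list by p without overlap and 2 by range; other genes were named after their values were seen, and not every gene of the lists is named. Floors are 3 reads and cover counting error only.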

Additional observations from a re-analysis of the deposited data

How the results depend on the processing

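Alternatives were pseudocounts of 0.25 and 4, no filter, a filter of 5 CPM, median-of-ratios, quantile and total scaling, no trend, array weights, only the 2 groups compared, a replicate block, edgeR, DESeq2 and each library left out. For space_microg against ground, 0 genes were called by limma, 615 with array weights (a fit that stopped before it converged) and 3 by DESeq2. By limma with array weights 1 of the 42 members, TRIM22, was called (1.00 ± 0.21, adjusted p = 0.0384), where 615 of all 16103 genes were. The members' median was then 0.35 in place of -0.28. It was 0.57 in place of 0.11 for space_1g against ground and -0.19 in place of -0.51 for space_microg against space_1g. The cause was not tested. Every other alternative called 0 members in the 3 comparisons. Medians were -0.74, 0.08 and -0.89 by edgeR and -0.79, 0.06 and -0.91 by DESeq2, in the order of the report. Same-numbered libraries gave mixed correlations of their deviations (-0.40, 0.56 and 0.05 between space_microg and ground, 0.68 and 0.20 between space_microg and space_1g, -0.68 and 0.60 between space_1g and ground), and not every one is over 0.1, so the numbers are not read as pairs; with the replicate block 0 genes were called in each comparison and medians were -0.28, 0.44 and -0.77. The direction of the members' median in each comparison changed when 1 library was left out, as given in the report, and with 2 libraries in space_1g no member's direction there can be read apart from those libraries. In space_1g against ground and in space_microg against space_1g, the comparisons it was named for, IFITM2 kept its direction in every alternative. Members below about 1 CPM in a library rest on few reads there.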
